A study of Mus musculus with 12 samples.

Results

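The genes described here are the 39 genes of Wnt signalling at the cell surface: 19 Wnt ligands, 12 receptors (Fzd1 to Fzd10 and the co-receptors Lrp5 and Lrp6) and 8 secreted inhibitors (Dkk1 to Dkk4, Sfrp1, Sfrp2, Sfrp4 and Sfrp5). They were taken by name and not by a cut on their values, though earlier results of these data were known when they were chosen. The quantity given for each gene is chromatin accessibility, the sum of the ATAC-seq reads in every counted region that overlaps the mm10 gene span or lies within 10 kb of either end. A region was linked to 38 of the 39 members, against 18088 protein-coding genes in all, and 197 of the 115000 counted regions belonged to the set. After the filter on low counts, 37 members (of 17540 genes) and 134 of their regions (of 71069) were tested. Dkk4 had no region within this distance. Sfrp5 had a single region with 19 to 38 reads per group and was not tested.

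The study followed mouse embryonic fibroblasts (MEF) on their way to induced pluripotent stem cells (iPSC) under what the labels call 3c enhanced reprogramming, with 3 libraries in each of 4 groups. All 12 libraries came from cells of a Mixed (C57BL/6 x 129) strain, and the compounds behind 3c are not spelled out in the labels. The MEF were unsorted. Stage 1 cells (day 6), Stage 2 cells (day 6 + 4) and iPSC were sorted as positive for Oct4-GFP, a reporter of the pluripotency gene Pou5f1, so that the sort differs between MEF and every other group along with the stage. The labels do not say whether the replicates were separate animals or cultures, and the p-values below measure the spread between these libraries only.

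Wnt ligands are secreted, lipid-modified proteins that bind Frizzled receptors at the cell surface. With the co-receptors Lrp5 or Lrp6 they block the destruction of beta-catenin, which then works with TCF and LEF factors on target genes, while other Wnt and Frizzled pairs act without beta-catenin. Sfrp proteins bind the ligands outside the cell, and Dkk proteins such as Dkk1, though not every one, bind the co-receptors. Wnt signalling is known to bear on both the self-renewal of mouse pluripotent cells and their entry into differentiation. Accessibility near a gene is not its expression, and in these bulk samples fewer cells with an open site and less signal per cell cannot be told apart.

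The libraries held between 1034936 and 6261903 reads in regions. The share of all counted reads that lay in regions was lower at each later stage. In MEF its mean was 16.7% ± 5.37 (SD, n = 3). Stage 1 libraries had 7.64% ± 0.415, Stage 2 libraries 6.03% ± 0.813, and iPSC libraries 4.94% ± 0.395. From the density of reads outside the regions, background was estimated to supply 13.8%, 30.6%, 39.9% and 48.9% of the region reads in these groups. A level is given below in CPM (region reads brought to a common library total, with the trimmed mean of M-values, TMM, from edgeR), and a fold over background is that level divided by the level expected from the outside reads over the same length. The expected background of a member in CPM was 1.97-fold its MEF value by Stage 1, 2.65-fold by Stage 2, and 3.42-fold for iPSC. TMM centres the genes on one another. Scaling by all counted reads instead moved the median over all tested genes from -0.01 to -0.96 (log2) for Stage 1 against MEF, and from 0.02 to -0.37 for Stage 2 against Stage 1. For iPSC it moved from 0.02 to -0.33 against Stage 2 and from -0.01 to -1.70 against MEF. Directions below are therefore relative to the typical gene. Whole-library values are given beside the rises of the members described in full, and each called fall of a member was larger with that scaling. Single regions are given with TMM except where the other value is named. The targeted cell states were visible in the regions near marker genes: all 10 fibroblast markers fell and all 10 pluripotency markers rose both in Stage 1 and in iPSC against MEF.

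Stage 1 was compared with MEF to ask which Wnt genes had changed by the earliest sorted stage. Accessibility fell near 19 of the 37 members tested and rose near 9, while 32.7% of all genes tested fell and 32.4% rose (edgeR's quasi-likelihood test, Benjamini-Hochberg adjusted p under 0.05). The median log2 fold change of the members was -0.37, beside -0.01 over all genes. Ligands fell more often than they rose (9 and 4 of 19), receptors were nearly balanced (5 and 4 of 12), and 5 of the 6 tested inhibitors fell while Dkk1 rose. No overlap between the libraries of the groups was seen for 18 of the 19 falls and 7 of the 9 rises. The share of such calls among all called genes was not computed, so these counts only describe the members. With whole-library scaling, 26 members fell and 3 rose, against 69.7% and 7.56% of all genes, and the 3 that rose were Wnt8a, Fzd10 and Dkk1. With only regions within 2 kb summed, the balance turned: 13 of 35 members tested rose and 10 fell. Of the 16200 genes tested at this distance, 5172 rose and 4796 fell.

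**Figure D1:**
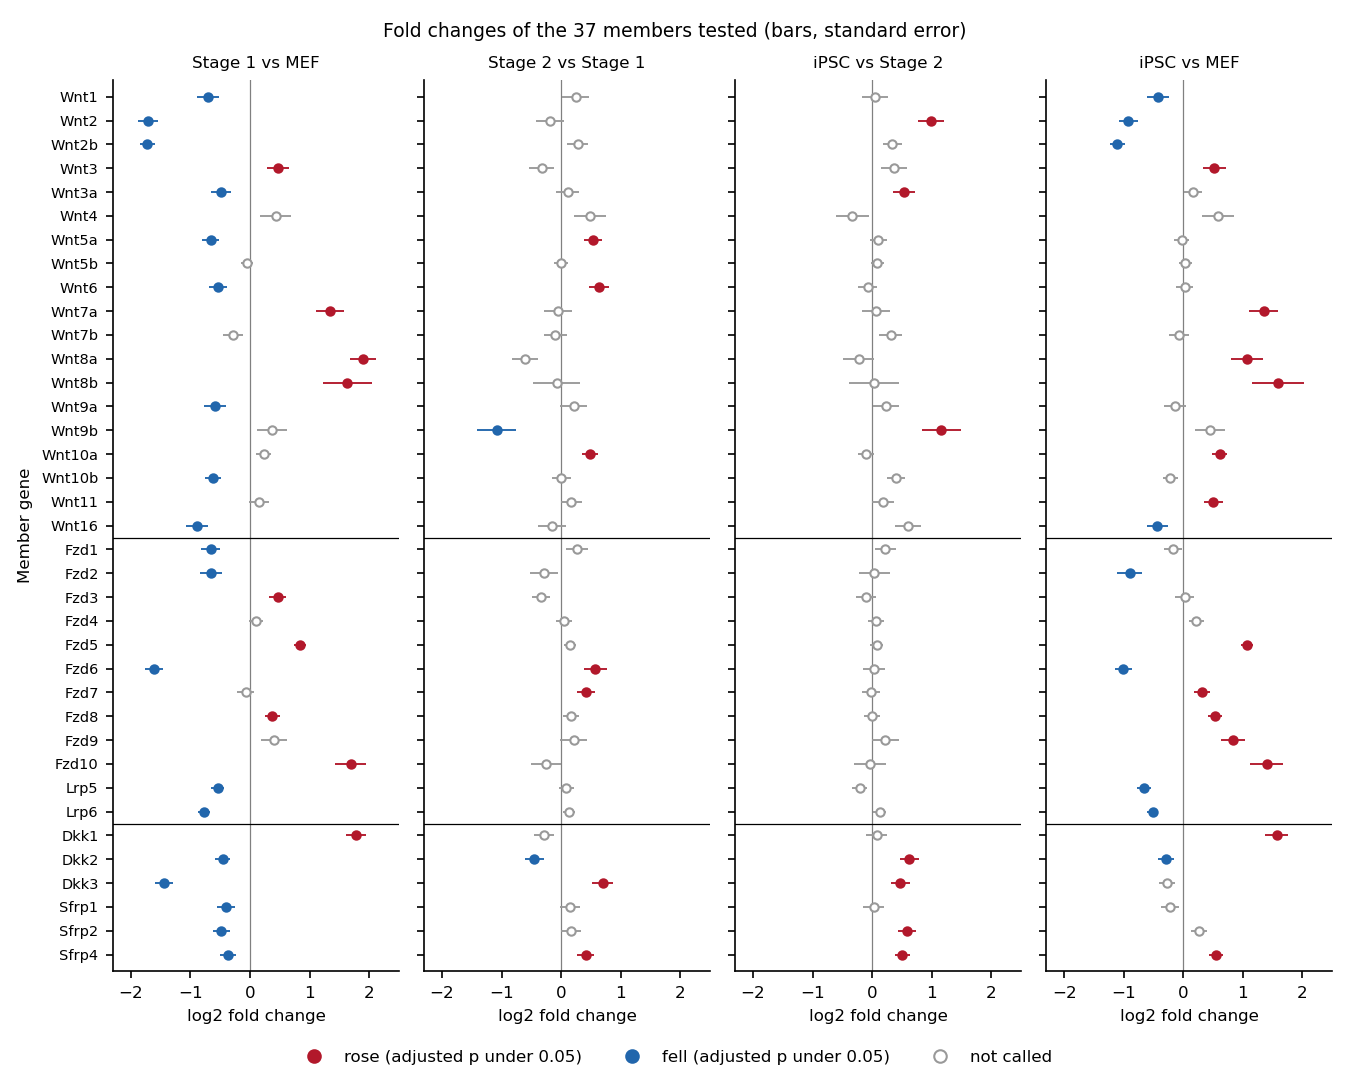
Log2 fold change of each of the 37 members tested (x axis, edgeR with TMM scaling; bars are the standard error) in 4 comparisons, ordered from ligands through receptors to inhibitors. Filled points passed an adjusted p of 0.05: 28 members in Stage 1 against MEF, 9 in Stage 2 against Stage 1, 7 in iPSC against Stage 2 and 22 in iPSC against MEF; with whole-library scaling the rises in iPSC against MEF all turn to negative values.

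Among the ligands, Wnt8a, which acts in the early embryo, had the largest rise. Its level was 6.85, 7.80 and 7.72 CPM in the MEF libraries and 34.4, 27.4 and 22.3 CPM in Stage 1. Every Stage 1 library stood above every MEF library, and the log2 fold change was 1.90 ± 0.22 (SE; adjusted p = 8.43e-12 in edgeR; 0.96 with whole-library scaling). The rise came from 1 of the 2 regions near the gene, chr18:34541751-34542350, which overlaps the edge of the gene span and held 10 reads over the MEF libraries against 90 in Stage 1. That region rose by 4.61 ± 0.38 (adjusted p = 1.52e-20 in edgeR; 3.93 with whole-library scaling), from 0.62 to 8.81 times the expected background. With all regions within 50 kb summed, the change near Wnt8a was -0.23 and was not called. Wnt7a (log2 fold change 1.34) and Wnt8b (1.64) rose as well with no overlap, from low levels in MEF, but with whole-library scaling their values were 0.39 and 0.71 and were not called. Wnt3 rose by 0.48 with overlapping libraries, and its value was -0.46 with whole-library scaling.

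Wnt2b and Wnt2, a pair of closely related ligands expressed in mesenchyme, had the largest falls. Wnt2b was at 113, 112 and 109 CPM in MEF and at 32.2, 39.8 and 30.7 CPM in Stage 1. The fall of 1.72 ± 0.13 on the log2 scale (adjusted p = 2.77e-19 in edgeR) left it at 1.70 times the expected background, down from 10.9 times in MEF. Wnt2 was at 77.4, 60.7 and 61.4 CPM in MEF and 16.1, 16.8 and 26.5 CPM in Stage 1. The groups did not overlap and the log2 fold change was -1.72 ± 0.17 (adjusted p = 1.54e-14 in edgeR). The other falls among the ligands, all without overlap, ranged from -0.89 for Wnt16 to -0.49 for Wnt3a and took in Wnt1, Wnt5a, Wnt6, Wnt9a and Wnt10b. Wnt4, Wnt5b, Wnt7b, Wnt9b, Wnt10a and Wnt11 were not called, with log2 fold changes between -0.29 and 0.43.

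Of the receptors, Fzd10 and Fzd5 rose the most among those without overlap. Fzd10 was at 8.53, 5.14 and 5.26 CPM in MEF and 18.3, 15.9 and 27.7 CPM in Stage 1. All Stage 1 libraries were higher, with a log2 fold change of 1.69 ± 0.26 (adjusted p = 2.86e-08 in edgeR; 0.72 with whole-library scaling). Fzd5, a receptor that can signal through beta-catenin, was at 63.5, 64.5 and 60.7 CPM in MEF and at 116, 110 and 114 CPM in Stage 1. The spread within each group was small beside the difference, and the log2 fold change was 0.84 ± 0.10 (adjusted p = 3.20e-11 in edgeR), but it was -0.10 with whole-library scaling. Fzd8 rose by 0.37 without overlap and Fzd3 by 0.46 with overlap, and these values were -0.58 and -0.49 with whole-library scaling.

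Fzd6 had the largest fall of the receptors. Its libraries were at 61.7, 71.1 and 76.8 CPM in MEF and at 19.1, 21.2 and 26.5 CPM in Stage 1. The groups stood far apart, with a log2 fold change of -1.61 ± 0.16 (adjusted p = 1.09e-14 in edgeR), and the level in Stage 1 was 1.29 times the expected background. Both co-receptors fell, Lrp6 by 0.77 and Lrp5 by 0.54 on the log2 scale, as did Fzd1 by 0.66 and Fzd2 by 0.65. Fzd4, Fzd7 and Fzd9 were not called, with values of 0.10, -0.08 and 0.40.

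The inhibitor Dkk1, which binds Lrp5 and Lrp6, ran against the other inhibitors. Its level was 12.2, 12.4 and 15.8 CPM in MEF and 38.8, 46.9 and 49.3 CPM in Stage 1. The groups did not overlap, and the log2 fold change was 1.78 ± 0.17 (adjusted p = 1.15e-14 in edgeR; 0.84 with whole-library scaling). Dkk3, a divergent member of the Dkk family, was at 70.9, 71.1 and 71.9 CPM in MEF and at 26.4, 25.7 and 26.5 CPM in Stage 1. Its libraries agreed closely within each group, and its log2 fold change of -1.44 ± 0.15 (adjusted p = 2.96e-13 in edgeR) took it to a mean of 26.2 CPM, close to the 23.3 CPM expected from background. Sfrp2 was at 54.5, 48.3 and 52.3 CPM in MEF and at 34.4, 32.7 and 42.1 CPM in Stage 1, a smaller fall of 0.49 ± 0.14 on the log2 scale (adjusted p = 0.0021 in edgeR). Dkk2, Sfrp1 and Sfrp4 fell by 0.46, 0.41 and 0.37, Sfrp1 with overlapping libraries. Near Sfrp4 all but 1 region also lie within 10 kb of Epdr1 or Nme8, and without them its change was 3.49.

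**Figure D2:**
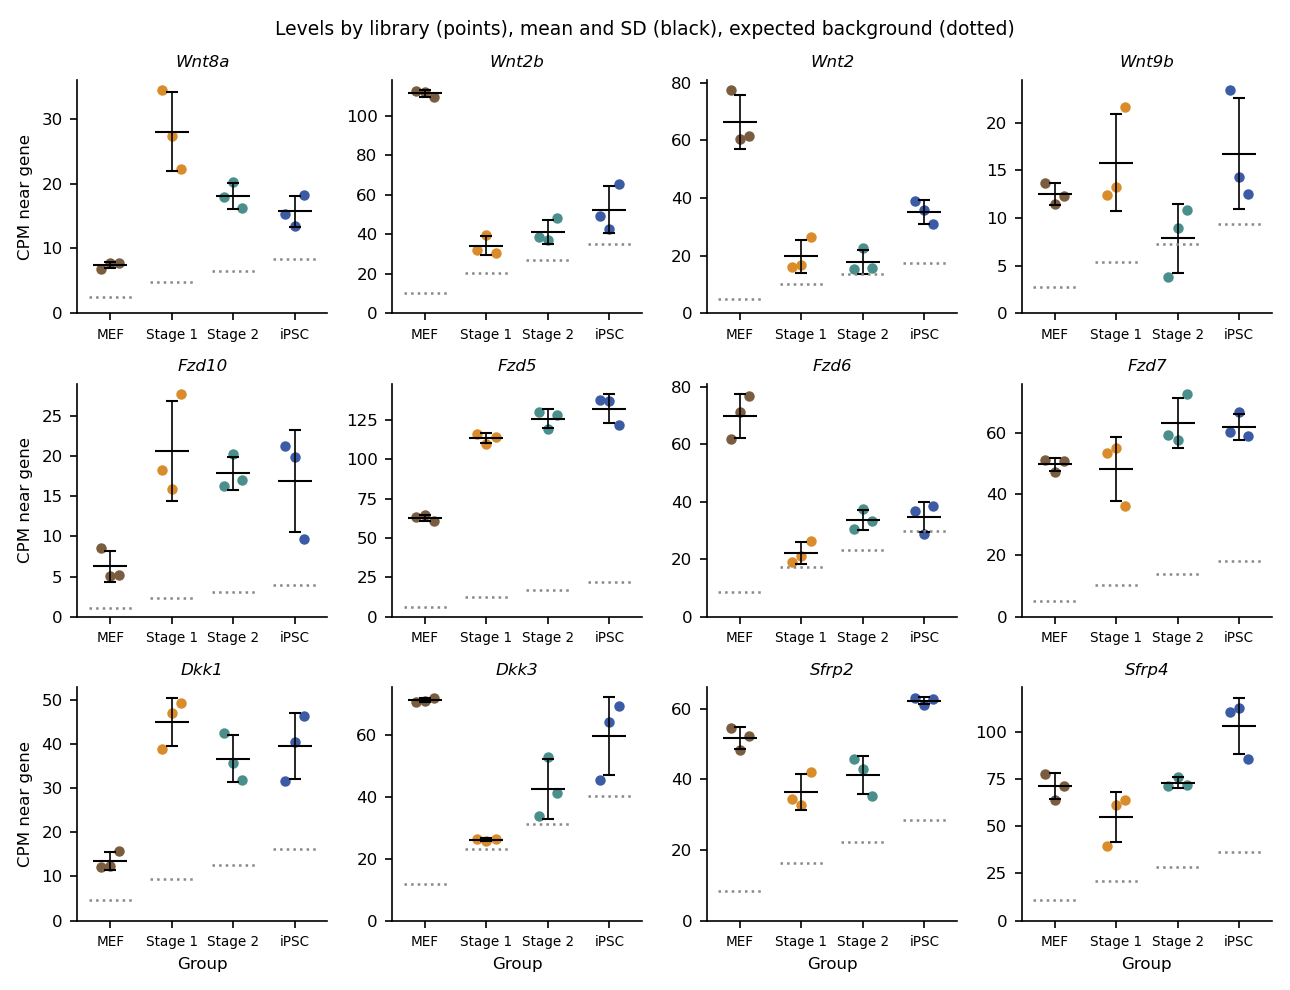
Level in CPM near 12 members (one panel each, y axis from 0) in each library of the 4 groups (coloured points), with the group mean and SD (black) and the level expected from background (dotted). Wnt8a, Fzd10, Fzd5 and Dkk1 stand higher in every Stage 1 library than in MEF and Wnt2b, Wnt2, Fzd6 and Dkk3 lower, while the dotted line climbs 3.42-fold from MEF to iPSC.

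Calls for 8 of these 28 members were lost when a library was left out. In edgeR the adjusted p rose to 0.0748 for Dkk2, 0.118 for Fzd3 and 0.251 for Sfrp4 without Stage 1 replicate 1. It rose to 0.122 for Sfrp1, 0.0849 for Wnt3, 0.059 for Wnt3a and 0.0602 for Wnt9a without Stage 1 replicate 2, and to 0.0552 for Fzd2 without Stage 1 replicate 3. Wnt8a, Wnt2b, Wnt2, Fzd10, Fzd5, Fzd6, Dkk1 and Dkk3 stayed called without any single library.

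Summed levels hid regions that moved in opposite directions. Of the 134 member regions tested, 59 fell and 41 rose in Stage 1 against MEF, beside 40.4% and 40.0% of all regions tested (edgeR, adjusted p under 0.05). By role, 29 fell and 19 rose among the 67 ligand regions, 18 and 12 among the 40 receptor regions, and 12 and 10 among the 27 inhibitor regions. At 18 members, regions of both directions were called. Genes with both directions were not counted outside the members, so this is not shown to set the members apart. Dkk1 was unlike most members in that all 4 of its tested regions rose, by between 1.05 and 3.90 on the log2 scale, and Wnt2b in that 5 of 6 fell and none rose. Region fold changes are scaled over the regions and run lower than gene fold changes by 0.23 on the log2 scale in this comparison, as read from the members with a single region. For 32 of the 134 regions a gene that is no member lay equally within 10 kb.

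**Figure D3:**
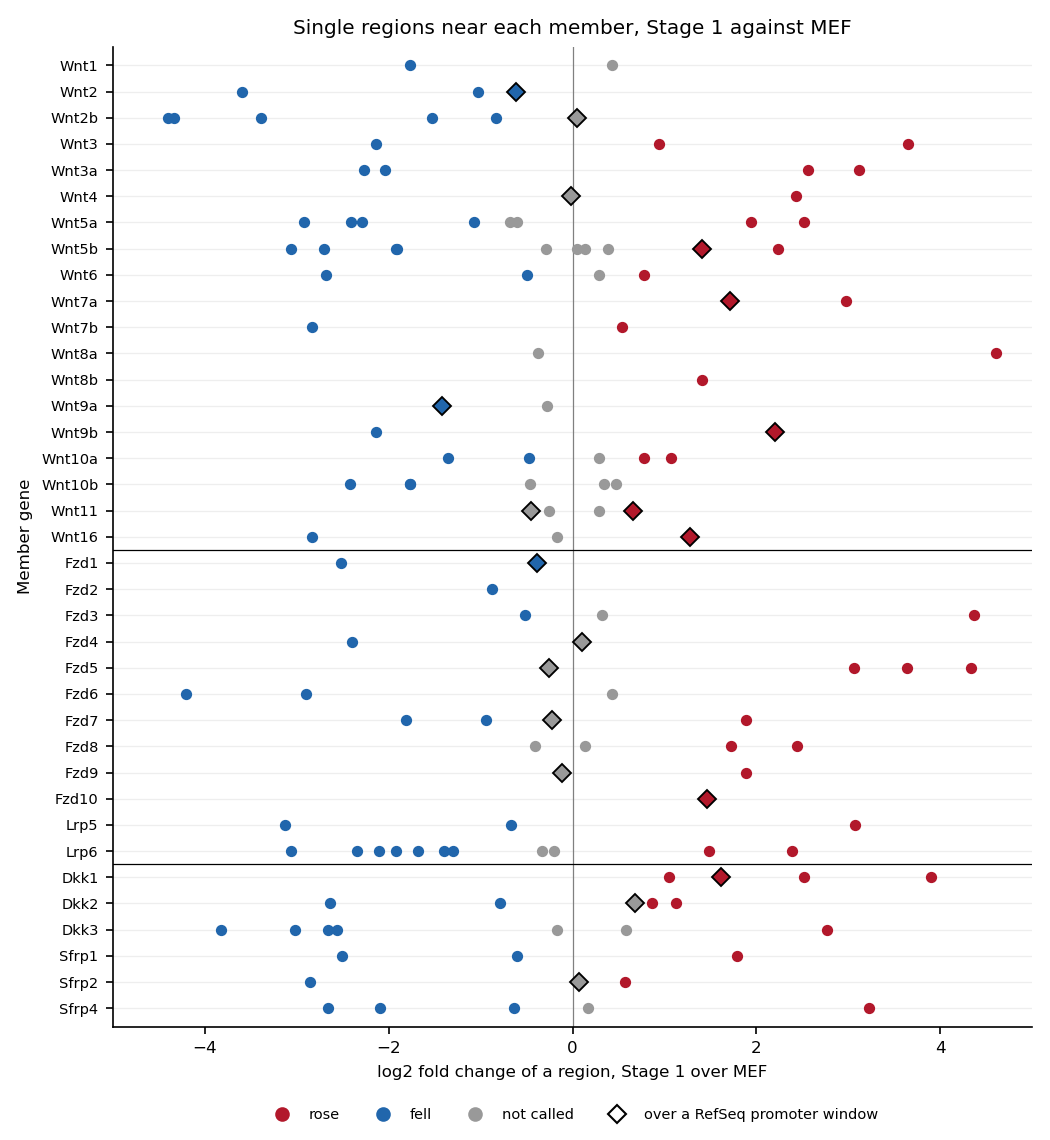
Log2 fold change of each tested region, Stage 1 over MEF (x axis, edgeR with region-level TMM scaling), in the row of the member it is linked to; diamonds overlap a RefSeq promoter window, and colours mark an adjusted p under 0.05. In 18 rows red and blue points stand together, while all 4 Dkk1 regions are red and 5 of the 6 Wnt2b regions are blue.

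At Wnt2b the loss lay downstream of and at the far end of the gene span, near St7l. The region chr3:104944801-104945650 was at 69.9, 61.4 and 55.8 CPM in MEF and at 2.77, 4.12 and 2.16 CPM in Stage 1. It stood 24.8 times over the expected background in MEF and below it afterwards, at 0.71 times, with a log2 fold change of -4.40 ± 0.31 (adjusted p = 4.17e-25 in edgeR). The region over the Wnt2b promoter window, by contrast, was at 12.9 ± 1.47 CPM in MEF and 13.2 ± 3.19 CPM in Stage 1 (mean ± SD, n = 3; log2 fold change 0.05, not called). With the regions shared with St7l left out, the gene's value in iPSC against MEF was 0.11 in place of -1.11.

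Fzd6 and Wnt16 had the same layout of a fallen outer region and a kept or raised region at the gene. For Fzd6, chr15:39047351-39048650, which lies beyond the gene's end, went from 47.1, 52.3 and 49.1 CPM to 1.84, 3.09 and 2.88 CPM, a log2 fold change of -4.21 ± 0.32 (adjusted p = 1.48e-22 in edgeR). The region at the gene's start was at 14.8 ± 3.31 CPM in MEF and 18.9 ± 4.33 CPM in Stage 1 and was not called. Near Wnt16, a ligand of skeletal and skin development, a region before the gene fell by 2.84 and the one over the promoter window rose by 1.27. When only regions within 2 kb of the gene were summed, the change of Fzd6 was 0.43 and was not called, and that of Wnt16 was a rise of 1.19. The same narrower sum turned Wnt3a to 0.11, Wnt6 to 0.08 and Sfrp2 to 0.16, none of them called.

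Fzd5 had another layout. Its promoter region was already at 82.9, 82.7 and 72.0 CPM in MEF and was at 71.9, 57.7 and 69.2 CPM in Stage 1, which was not called. A region inside its span, chr1:64733301-64734200, went from 1.42, 3.04 and 2.38 CPM to 47.9, 44.3 and 46.1 CPM. The iPSC libraries stayed there, at 39.2, 34.3 and 41.1 CPM, with a log2 fold change over MEF of 4.06 ± 0.28 (adjusted p = 3.22e-25 in edgeR; 2.81 with whole-library scaling). That region and the other 2 that rose are also within 10 kb of Ccnyl1, and without shared regions the change of Fzd5 in Stage 1 was -0.07 and was not called. At Fzd3 a region within the gene, chr14:65245251-65245850, went from 7 reads in MEF to 55 in Stage 1, a log2 fold change of 4.37 ± 0.45 (adjusted p = 1.45e-15 in edgeR; 3.69 with whole-library scaling).

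The deposited stage lists describe the same shift, on the same libraries. Of the 197 member regions, 58.9% were in the MEF list only (116 regions), beside 56.3% of all counted regions, and 11.7% were in all 4 lists, beside 11.02%. Of the 57 tested member regions in the MEF list only, 47 fell and 1 rose in Stage 1, and of the 34 outside the MEF list 30 rose and none fell. As lists and counts come from the same reads, this describes them and tests nothing.

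Promoters were examined where the RefSeq table (GRCm38.p6) held an entry, for 25 members and 28 windows of 250 bases before a gene start. A counted region overlapped the windows of 19 members, 21 regions in all, of which 19 were tested. In Stage 1 against MEF, 7 of the 19 rose (Wnt5b, Wnt7a, Wnt9b, Wnt16, the second Wnt11 start, Fzd10 and Dkk1) and 3 fell (Wnt2, Wnt9a and Fzd1), while 20 of the 65 tested regions elsewhere in the gene spans rose and 29 fell, as did 14 and 27 of the 50 outside the spans. Over all regions tested, at any place, 40.0% rose and 40.4% fell. Promoter regions of other genes were not counted apart, so whether this split is particular to the members was not tested. The promoters of Fzd4, Fzd5, Fzd7 and Fzd9 were not called. The windows of Dkk1, Wnt7a, Wnt9b and Fzd10 are shown, 5′ to 3′ on the gene's strand. With Wnt16 these are the members whose promoter region rose, with TMM, both in Stage 1 and in iPSC against MEF. Fzd10 has no other region, and with whole-library scaling its gene value was 0.72 in Stage 1 and -0.31 in iPSC against MEF. The other promoter regions are given with TMM only. The Wnt7a region, chr6:91411601-91412100, only touches the outer edge of its window, so its values are mostly for bases not printed. Capitals mark TCF/LEF letters (CTTTGAT or CTTTGAA) and TATAAA on either strand. Dkk1 lies at chr19:30549497-30549746 (minus strand), Wnt7a at chr6:91411354-91411603 (minus), Wnt9b at chr11:103749822-103750071 (minus) and Fzd10 at chr5:128600856-128601105 (plus).
Dkk1: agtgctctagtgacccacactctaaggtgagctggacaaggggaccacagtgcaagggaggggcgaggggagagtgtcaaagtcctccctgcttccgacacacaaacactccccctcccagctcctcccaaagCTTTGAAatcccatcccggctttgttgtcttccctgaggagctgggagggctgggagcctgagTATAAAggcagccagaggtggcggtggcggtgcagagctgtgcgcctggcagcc
Wnt7a: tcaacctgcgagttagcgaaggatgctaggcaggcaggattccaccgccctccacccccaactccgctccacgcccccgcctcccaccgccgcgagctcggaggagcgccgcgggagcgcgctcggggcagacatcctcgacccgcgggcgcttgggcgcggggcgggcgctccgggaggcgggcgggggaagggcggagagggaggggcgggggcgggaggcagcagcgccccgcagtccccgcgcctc
Wnt9b: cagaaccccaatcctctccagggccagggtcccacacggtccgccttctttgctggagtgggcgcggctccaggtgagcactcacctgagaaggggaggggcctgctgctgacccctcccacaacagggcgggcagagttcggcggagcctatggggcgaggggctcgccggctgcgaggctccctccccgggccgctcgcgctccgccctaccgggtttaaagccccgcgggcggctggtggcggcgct
Fzd10: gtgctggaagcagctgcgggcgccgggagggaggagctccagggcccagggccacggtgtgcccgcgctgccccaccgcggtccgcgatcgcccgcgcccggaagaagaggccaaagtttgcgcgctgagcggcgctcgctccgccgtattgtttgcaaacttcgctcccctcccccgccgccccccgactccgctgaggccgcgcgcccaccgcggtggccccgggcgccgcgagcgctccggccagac

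The Dkk1 window alone among these 4 held the searched letters, a TCF/LEF match 117 bases and a TATAAA 54 bases before the start, and its GC content was 60.8%, beside 72.0% to 77.6% in the other 3. The Dkk1 promoter region went from 5.45, 5.25 and 5.72 CPM in MEF to 13.8, 16.5 and 19.4 CPM in Stage 1. No library overlapped, and the log2 fold change was 1.61 ± 0.31 (adjusted p = 1.67e-06 in edgeR). The Wnt9b promoter rose by 2.205 ± 0.34 from 3.79, 3.59 and 2.86 CPM to 14.7, 12.4 and 20.9 CPM, the Wnt7a promoter by 1.71 and the Fzd10 promoter by 1.46. Over all members, the TCF/LEF letters were in 3 of 28 windows (10.7%), beside 7.48% of 32851 RefSeq windows of this length. These were the windows of Dkk1, of Wnt5b and of the first Wnt11 start. The region over that first Wnt11 start was not called in Stage 1 against MEF (log2 fold change -0.45). The second Wnt11 start, whose region rose, held no TCF/LEF letters. The AP-1 letters TGANTCA were in 3.57% of member windows and 6.75% of all, the octamer ATGCAAAT in 3.57% and 1.601%, and TATAAA in 14.3% and 12.4%.

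The Wnt5b window with a TCF/LEF match (chr6:119449387-119449636, minus strand) and the Wnt9a window (chr11:59306680-59306929, plus strand) are given as a pair that moved in opposite directions.
Wnt5b: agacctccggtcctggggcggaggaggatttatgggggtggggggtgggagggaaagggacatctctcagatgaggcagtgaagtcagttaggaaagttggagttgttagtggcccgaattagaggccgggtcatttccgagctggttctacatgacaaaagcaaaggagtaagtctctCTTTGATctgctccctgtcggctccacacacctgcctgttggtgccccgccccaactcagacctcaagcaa
Wnt9a: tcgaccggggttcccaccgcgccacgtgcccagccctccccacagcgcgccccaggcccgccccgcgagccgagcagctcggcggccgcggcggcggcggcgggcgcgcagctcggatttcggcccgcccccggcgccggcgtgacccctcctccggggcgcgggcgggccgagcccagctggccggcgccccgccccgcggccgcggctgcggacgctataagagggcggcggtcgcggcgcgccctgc

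The Wnt5b match lies 71 bases before the start. The region over it was at 9.71, 11.9 and 13.4 CPM in MEF and at 32.3, 35.1 and 25.2 CPM in Stage 1, and it came back to 15.7, 15.1 and 16.03 CPM in iPSC. The rise in Stage 1 was 1.41 ± 0.24 (adjusted p = 5.87e-08 in edgeR), and in iPSC against MEF the region was not called. The Wnt9a window, with a GC content of 84.4%, held none of the searched letters. Its region was at 21.8, 29.9 and 28.6 CPM in MEF and at 9.22, 8.25 and 11.5 CPM in Stage 1, a log2 fold change of -1.42 ± 0.27 (adjusted p = 1.01e-06 in edgeR). A match of letters describes a window and does not show that a factor binds there.

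Between Stage 1 and Stage 2, few members moved. Accessibility rose near 7 members, Wnt5a, Wnt6, Wnt10a, Fzd6, Fzd7, Dkk3 and Sfrp4, and fell near 2, Wnt9b and Dkk2, while 8.53% of all genes rose and 7.32% fell. The median of the members was 0.13, beside 0.02 for all genes. Of the 7 that rose, 5 had fallen in Stage 1 against MEF. Both comparisons use the same Stage 1 libraries with opposite sign, which by itself favours such reversals. How often other genes reversed was not computed, so a return of these members was not tested. With whole-library scaling none of the 37 rose and 3 fell (Wnt8a, Wnt9b and Dkk2), against 0.353% and 6.89% of all genes.

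Wnt9b, a ligand of kidney development, was at 12.5, 13.3 and 21.7 CPM in Stage 1 and at 3.80, 8.93 and 10.9 CPM in Stage 2. The libraries did not overlap, and the log2 fold change was -1.08 ± 0.32 (adjusted p = 0.0128 in edgeR), down to 1.08 times the expected background. Its promoter region fell by 1.35 ± 0.35 (adjusted p = 0.00549 in edgeR). Wnt6 went from 37.4, 26.5 and 35.5 CPM to 55.4, 43.5 and 59.0 CPM, a log2 fold change of 0.64 ± 0.17 (adjusted p = 0.00404 in edgeR), with regions that it shares with Wnt10a. The value was 0.26 with whole-library scaling and -0.03 without shared regions. Wnt5a, a ligand known for signalling without beta-catenin, went from 31.5, 46.0 and 36.1 CPM to 50.5, 53.6 and 59.0 CPM, a log2 fold change of 0.53 ± 0.16 (adjusted p = 0.012 in edgeR; 0.13 with whole-library scaling). In each of these the groups stood apart by less than the distance between Stage 1 and MEF seen at Wnt2b or Dkk1.

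Among receptors, Fzd6 rose from 19.1, 21.2 and 26.5 CPM to 30.4, 37.5 and 33.2 CPM, a log2 fold change of 0.58 ± 0.20 (adjusted p = 0.0319 in edgeR), but stood at 1.45 times the expected background in Stage 2. Fzd7, a receptor that is prominent in pluripotent cells, went from 53.5, 54.9 and 36.1 CPM to 59.2, 57.7 and 72.6 CPM, a log2 fold change of 0.41 ± 0.15 (adjusted p = 0.0464 in edgeR). Dkk3 went from 26.4, 25.7 and 26.5 CPM to 33.7, 53.0 and 41.4 CPM, a log2 fold change of 0.70 ± 0.18 (adjusted p = 0.00461 in edgeR). Dkk3 thus stayed below its MEF level in all 3 Stage 2 libraries. Sfrp4 rose by 0.41 ± 0.14 (adjusted p = 0.038 in edgeR), from 39.6, 61.1 and 63.8 CPM to 71.2, 76.2 and 71.9 CPM. With whole-library scaling the 4 values were 0.19, 0.01, 0.30 and 0.02, none of them called.

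All 9 calls between Stage 1 and Stage 2 were lost without some library. The adjusted p in edgeR rose to 0.253 for Dkk2, 0.505 for Fzd7 and 0.215 for Wnt9b without Stage 1 replicate 3, and to 0.342 for Sfrp4, 0.0703 for Wnt10a and 0.084 for Wnt5a without Stage 1 replicate 1. It rose to 0.054 for Wnt6 without Stage 1 replicate 2, and to 0.0993 for Dkk3 and 0.143 for Fzd6 without Stage 2 replicate 2. Of single regions, 4 of 134 rose and 5 fell, beside 5.14% and 5.62% of all regions tested. Of those called, the largest rise was near Dkk3 and Usp47, at chr7:112110601-112110950, by 1.42 ± 0.39 (adjusted p = 0.00935 in edgeR), and the next near Wnt10a, at chr1:74806451-74807000, by 1.197 ± 0.40 (adjusted p = 0.0383 in edgeR). The largest fall was within Wnt5b, at chr6:119452001-119452650, from 17.9 ± 2.24 to 6.86 ± 0.69 CPM (mean ± SD, n = 3; log2 fold change -1.37, adjusted p = 0.00424 in edgeR).

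Between Stage 2 and iPSC, 7 members rose and none fell, while 5.80% of all genes rose and 3.62% fell. By role these were 3 of 19 ligands (Wnt2, Wnt3a and Wnt9b), none of 12 receptors, and 4 of 6 inhibitors (Dkk2, Dkk3, Sfrp2 and Sfrp4). The receptors' log2 fold changes ran from -0.21 to 0.22. With whole-library scaling edgeR called no member in either direction, against 0% of genes that rose and 0.222% that fell, and DESeq2 called 2 of the rises. At the level of single regions none of 134 rose and 1 fell, beside 0.498% and 1.36% of all regions. That region, near Lrp5 and Ppp6r3 at chr19:3575501-3576500, fell from 44.0 ± 7.19 to 26.7 ± 2.23 CPM (log2 fold change -0.71, adjusted p = 0.0466 in edgeR).

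Wnt2 went from 15.2, 22.6 and 15.6 CPM in Stage 2 to 38.8, 35.8 and 30.9 CPM in iPSC. The groups stood apart, with a log2 fold change of 0.99 ± 0.22 (adjusted p = 0.00173 in edgeR; 0.63 with whole-library scaling), and Wnt2 was then at 2.03 times the expected background. Wnt9b rose by 1.16 ± 0.33 (adjusted p = 0.0161 in edgeR; 0.81 with whole-library scaling), to 23.5, 14.3 and 12.5 CPM, a range that overlaps the one it had in Stage 1. Wnt3a went from 28.3, 31.0 and 27.1 CPM to 42.5, 44.5 and 37.6 CPM (log2 fold change 0.53 ± 0.18, adjusted p = 0.0447 in edgeR; 0.18 with whole-library scaling).

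The inhibitors with separated libraries rose by similar amounts. Dkk2 went from 36.95, 38.7 and 44.1 CPM to 59.4, 66.0 and 57.9 CPM (log2 fold change 0.62 ± 0.16, adjusted p = 0.00698 in edgeR), Sfrp2 from 45.6, 42.9 and 35.3 CPM to 63.0, 61.2 and 62.7 CPM (0.58 ± 0.15, adjusted p = 0.00908) and Sfrp4 to 111, 113 and 85.8 CPM (0.51 ± 0.13, adjusted p = 0.00797). These ran beside a rise of the expected background from 39.9% to 48.9% of region reads: Dkk2 went from 1.33 to 1.58 times that background, Sfrp2 from 1.87 to 2.18 times and Sfrp4 from 2.59 to 2.83 times. With whole-library scaling the values of Dkk2, Sfrp2 and Sfrp4 were 0.27, 0.22 and 0.15. The part of the background in these rises was not tested. Without some library 6 of the 7 calls were lost: the adjusted p in edgeR rose to 0.0601 for Dkk2, 0.0787 for Sfrp4 and 0.183 for Wnt3a without iPSC replicate 2. It rose to 0.219 for Wnt9b without iPSC replicate 1, to 0.289 for Dkk3 without Stage 2 replicate 1 and to 0.0537 for Sfrp2 without Stage 2 replicate 3. Wnt2 was called without any single library.

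Over the whole course, from MEF to iPSC, 13 members rose and 9 fell, beside 32.8% and 32.2% of all genes tested, with a member median of 0.04. Rises were counted at 6 of 19 ligands, 5 of 12 receptors and 2 of 6 inhibitors, and falls at 4, 4 and 1. With whole-library scaling none rose and 32 fell, against 4.54% and 86.5% of all genes, so every rise in this comparison is one relative to the typical gene. The balance also moved with the distance. With regions within 2 kb, 17 of 35 members rose and 7 fell, beside 5019 and 5251 of 16200 genes. With regions within 50 kb, 10 of 39 members rose and 17 fell, beside 6351 and 7043 of 19535 genes. The fits share the MEF libraries, and set side by side they gave 8 members called up in both Stage 1 and iPSC (Wnt3, Wnt7a, Wnt8a, Wnt8b, Fzd5, Fzd8, Fzd10 and Dkk1) and 9 called down in both (Wnt1, Wnt2, Wnt2b, Wnt16, Fzd2, Fzd6, Lrp5, Lrp6 and Dkk2). Sfrp4 was called down in Stage 1 and up in iPSC. Such pairs of calls were not counted over all genes, so these numbers only describe the members.

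The largest rises were at Wnt8b, Dkk1, Fzd10 and Wnt7a. Wnt8b was at 1.84, 2.28 and 2.46 CPM in MEF and 8.06, 4.77 and 6.75 CPM in iPSC (log2 fold change 1.59 ± 0.43, adjusted p = 0.000944 in edgeR), and it rested on 24 to 32 reads per group. Wnt7a was at 9.70, 7.42 and 10.9 CPM in MEF and 13.9, 27.0 and 30.9 CPM in iPSC (1.35 ± 0.24, adjusted p = 1.41e-06 in edgeR). In fold over background all 13 members that rose stood lower in iPSC than in MEF: Wnt8b was at 2.01 times in iPSC and 2.30 in MEF, Wnt7a at 2.14 and 2.85, Dkk1 at 2.43 and 2.83, Fzd10 at 4.26 and 5.42, Fzd5 at 5.99 and 9.75, and Sfrp4 at 2.83 and 6.66. With whole-library scaling the fold changes of Wnt8b and Wnt7a were -0.08 and -0.34. The level minus the expected background was higher in iPSC for Wnt8b and Wnt7a, 3.28 against 1.24 CPM for Wnt8b and 12.7 against 6.05 CPM for Wnt7a.

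Fzd10 was at 21.3, 19.9 and 9.65 CPM in iPSC, above its MEF libraries (log2 fold change 1.40 ± 0.28, adjusted p = 1.15e-05 in edgeR), and Fzd5 at 138, 137 and 122 CPM (1.07 ± 0.10, adjusted p = 5.18e-15). Dkk1 was at 31.5, 40.5 and 46.3 CPM in iPSC (1.57 ± 0.19, adjusted p = 1.87e-11 in edgeR). With whole-library scaling the values of Fzd10, Fzd5 and Dkk1 were -0.31, -0.63 and -0.12. Sfrp4, at 111, 113 and 85.8 CPM against 77.9, 64.1 and 71.2 CPM in MEF, rose by 0.55 ± 0.12 (adjusted p = 3.71e-05 in edgeR), with -1.16 under whole-library scaling. Its largest region change was within the gene at chr13:19630801-19631400, which went from 11 reads in MEF to 80 in iPSC (log2 fold change 4.28 ± 0.38, adjusted p = 1.80e-18 in edgeR; 3.03 with whole-library scaling).

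On the falling side, Wnt2b stayed low at 49.1, 42.9 and 65.6 CPM in iPSC (log2 fold change -1.11 ± 0.12, adjusted p = 3.49e-12 in edgeR). Fzd6 was at 36.6, 28.6 and 38.6 CPM (-1.004 ± 0.15, adjusted p = 1.53e-08 in edgeR), which was 1.15 times the expected background, the lowest of the 37 members in iPSC. With only regions within 2 kb summed, the change of Fzd6 was 0.41 and that of Wnt2 was 0.18, neither called, and Wnt16 rose by 1.64. Dkk2 fell by 0.29 ± 0.13 on the log2 scale (adjusted p = 0.0409 in edgeR). Near Sfrp2, the region chr3:83757351-83757950 fell from 14.5 ± 4.92 to 1.69 ± 0.76 CPM (mean ± SD, n = 3; -3.08 ± 0.46, adjusted p = 3.93e-09 in edgeR), while the promoter region rose from 10.1 ± 1.10 to 27.4 ± 0.65 CPM. Over the 134 regions 40 rose and 55 fell, beside 39.1% and 43.0% of all regions. Both directions were held by 18 members, a count not made for other genes. Without some library 5 of the 22 gene calls were lost: in edgeR the adjusted p rose to 0.103 for Dkk2 without MEF replicate 2, to 0.182 for Fzd7 without iPSC replicate 2 and to 0.254 for Wnt16 without iPSC replicate 1. It rose to 0.104 for Wnt1 and 0.0957 for Wnt3 without iPSC replicate 3.

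**Figure D4:**
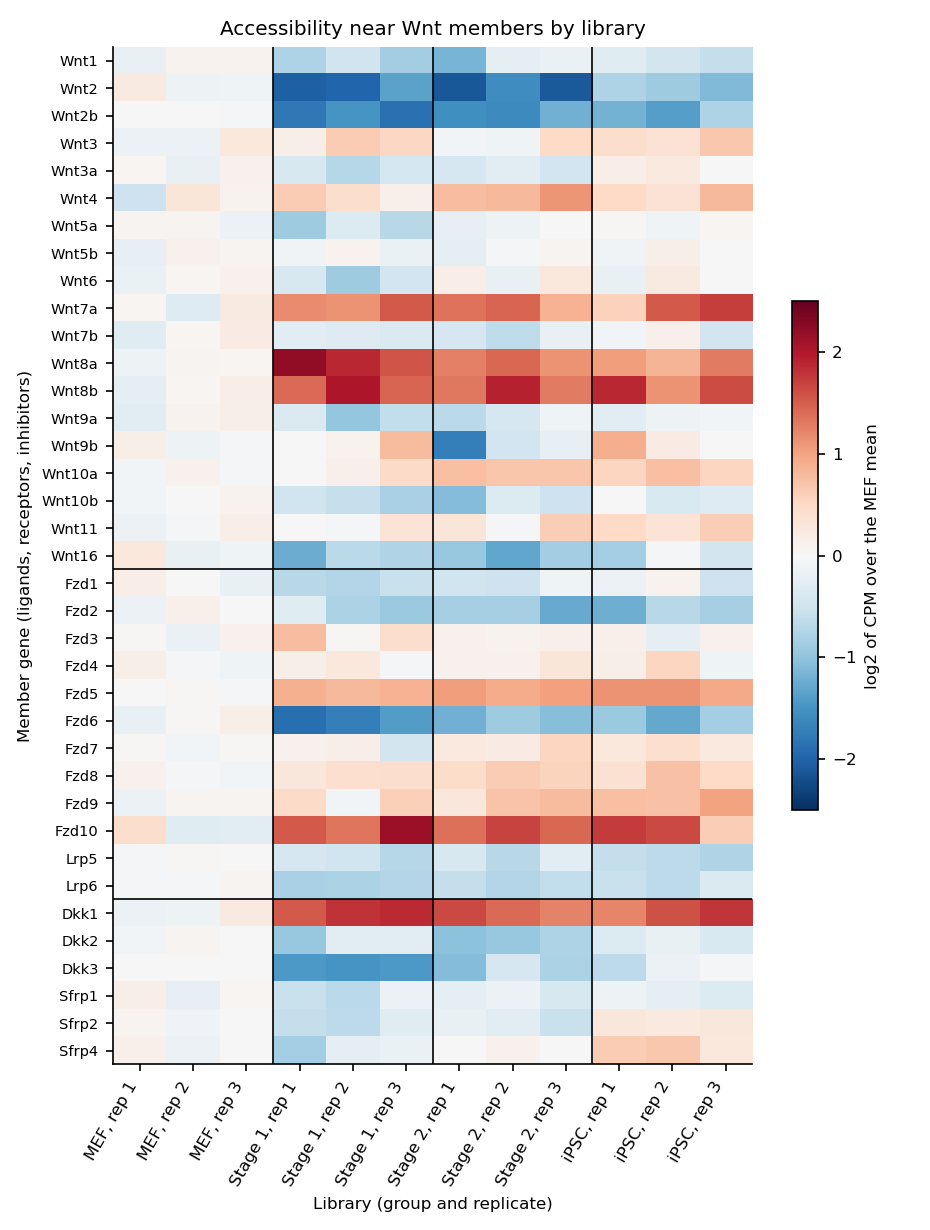
Level of each tested member in each of the 12 libraries (columns) as log2 of its CPM over the mean of the 3 MEF libraries (colour), with ligands, receptors and inhibitors divided by lines. Wnt7a, Wnt8a, Wnt8b, Fzd5, Fzd10 and Dkk1 are red in every library after MEF, and Wnt2b, Fzd6, Lrp5 and Lrp6 are blue in every one; with whole-library scaling all members move towards blue.

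In the order of group means, MEF was highest for 16 of the 37 members, iPSC for 11, and Stage 1 and Stage 2 for 5 each. This order was not counted over all genes, so these numbers only describe the members. The order also rests on TMM: with whole-library scaling 0 members rose and 32 fell in iPSC against MEF. Wnt8a was highest in Stage 1 (28.0 ± 6.11 CPM), where its libraries stood above those of Stage 2 (18.2 ± 1.99) and iPSC (15.7 ± 2.43), and the latter pair overlapped. Fzd5 stood lowest in MEF (62.9 ± 1.97 CPM), then in Stage 1 (113 ± 3.15), with Stage 2 (126 ± 5.84) and iPSC (132 ± 9.08) overlapping. Wnt5b, where 2 regions within the gene span rose and 4 fell in Stage 1, was at 110 to 117 CPM in all 4 group means, and was not called in any comparison. Fzd4 likewise had group means of 63.2, 69.1, 71.3 and 73.8 CPM without any call.

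Set over the expected background, which is a measure per length and can be compared between genes, the receptors stood highest at each stage. In the order MEF, Stage 1, Stage 2, iPSC their medians were 9.19, 5.15, 3.46 and 2.92 times background, beside 6.03, 2.83, 2.17 and 1.98 times for the ligands and 6.37, 2.45, 1.96 and 1.91 times for the inhibitors. At 2 times background or more stood all 37 members in MEF, and then 32, 25 and 20 at the later stages in turn. The expected background in CPM rose by the same folds near every gene, to 3.42-fold in iPSC. The same count was not made over all genes, so the decline cannot be called particular to the members. The regions were also listed from these same libraries, 160 of the 197 member regions in the MEF list and 45 in the iPSC list. Such a set favours height in MEF, so the decline describes these regions and tests nothing. In iPSC the members at 2 times background or more were 8 of 19 ligands, 9 of 12 receptors and 3 of 6 inhibitors. Fzd5, at 5.99 times, Fzd4, at 4.98 times, Fzd8, at 4.35 times, and Fzd10, at 4.26 times, were the highest in iPSC. Wnt10a, at 2.70 times, was the highest ligand there. The level minus background had the direction of the call for all 28 calls in Stage 1 against MEF and for 19 of 22 in iPSC against MEF. The exceptions were Fzd7, Wnt3 and Wnt11, called as rises with less signal above background in iPSC than in MEF.

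**Figure D5:**
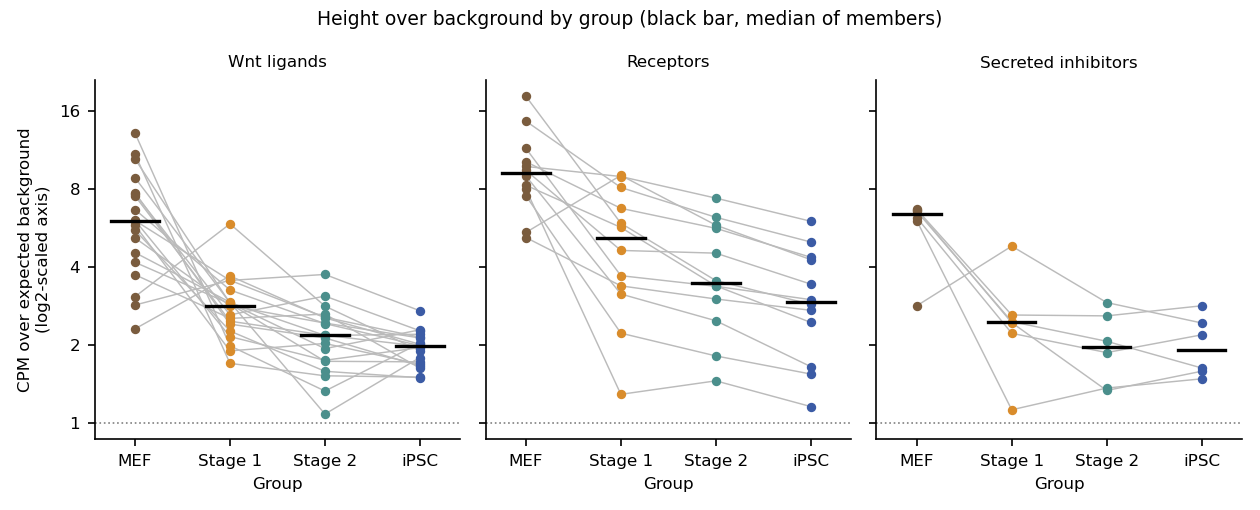
Group mean of each tested member divided by its expected background (y axis, log2-scaled; 1 is background) in the 4 groups, for 19 ligands, 12 receptors and 6 inhibitors, with members joined by lines and the median as a black bar. The medians of all 3 roles are highest in MEF and lowest in iPSC, and those of the receptors, from 9.19 to 2.92, stand above those of the ligands and the inhibitors in each group.

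Other genes of the pathway were described from 2 lists. Of 23 tested genes that act beside the receptors or on ligand secretion, 9 rose and 9 fell in Stage 1 against MEF, and of 14 intracellular genes 3 rose and 6 fell, beside 32.4% and 32.7% of all genes. Sostdc1, a secreted antagonist, rose by 1.68 (0.72 with whole-library scaling), and Rspo2, an R-spondin that strengthens Wnt signalling, fell by 1.47. Axin2, a target gene and inhibitor of beta-catenin signalling, went from 50.5, 47.6 and 40.7 CPM in MEF to 103, 127 and 149 CPM in Stage 1. Stage 2 libraries were at 67.4, 70.8 and 75.3 CPM, and iPSC libraries at 102, 106 and 106 CPM. Each step was called without overlap, at 1.44, -0.84 and 0.56, but with whole-library scaling the values were 0.48, -1.23 and 0.20, of which only the fall was called. Lef1, a DNA-binding partner of beta-catenin, rose by 1.45 and by a further 0.76 in Stage 2, then fell by 0.44 in iPSC. Its whole-library values were 0.51, 0.37 and -0.80, none of them called. The receptor-level list gave 2 rises and 1 fall in Stage 2 against Stage 1, 1 and 2 in iPSC against Stage 2, and 7 and 9 in iPSC against MEF. The intracellular list gave 1 and 2, 2 and 2, and 3 and 7.

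Markers of other cell types moved along with these changes. The summed level of the 10 fibroblast markers was 839 to 901 CPM in the MEF libraries. Stage 1 libraries had 341 to 394, Stage 2 libraries 360 to 417, and iPSC libraries 431 to 498. That of the 10 pluripotency markers was 211 to 231 CPM in MEF and 914 to 1161 over the later libraries. The 5 epithelial markers rose from a sum of 59.0 to 94.0 CPM in MEF to 205 to 212 in Stage 1, with all 5 called, and 4 of 5 endothelial markers fell. Of the blood markers 3 of 6 rose in Stage 1 against MEF and 1 fell, of the muscle markers 2 of 4 tested rose and 1 fell, and all 3 tested neural markers rose. One muscle marker was at 0 in every group and no other marker was. The share of any other cell type in the changes near the Wnt genes was not tested.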

How the data were processed

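ATAC-seq, which reads open chromatin by where a transposase cuts, was done on 12 libraries, 3 each of MEF, Stage 1, Stage 2 and iPSC, grouped by their labels. The count tables deposited by the authors give raw read counts for 115000 regions shared by all libraries. The submitters' processing notes name the build mm10 and, without roles, HTSeq 0.5.4p3, Bowtie2 2.2.6, DESeq2 1.12.4, SAMtools 0.1.19 and Picard 2.6.0. The peak caller is not given in the sources used here. Reads outside regions or in several were kept out of library sizes, except where whole-library scaling is named.

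Regions were linked to RefSeq genes (GRCm38.p6) within 10 kb and summed per gene. Genes and regions were each fitted in 1 model over the 4 groups with edgeR 4.0.16 (R 4.3.3; TMM, filterByExpr with minimum counts of 10 and 15, robust quasi-likelihood test), and p-values were adjusted by Benjamini-Hochberg over all genes or all regions, with a threshold of 0.05. The procedure was tested on simulated data. Depth in regions, from 1034936 to 6261903 reads, limits the precision of members with few reads. All replicate pairs differed by more than sampling noise.

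The members and lists were chosen with earlier results of these data known. Members named with all statistics were, per comparison and role, up to 3 with the largest called change without overlap between libraries. Regions were named as the 2 largest such rises and falls per comparison (log2 CPM averaging 2 or more), and at most 2 genes were named per pathway list. The other regions and genes named with values were chosen after their values were seen. Alternatives were whole-library scaling, DESeq2 1.42.0, no filter, the 2 groups alone, a replicate block, thinning, other links and leaving out each library.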

Additional observations from a re-analysis of the deposited data

How the results depend on the processing

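Of the 66 member calls, whole-library scaling kept 33 on their side with their direction and reversed 17, DESeq2 kept 49, thinning to the shallowest library 48, no filter 62, and fits of only the 2 groups compared 65; the cause was not tested. Whole-library scaling gave 3 members up in Stage 1 against MEF, 0 in Stage 2 against Stage 1, 0 in iPSC against Stage 2, and 0 up and 32 down in iPSC against MEF. Of the 134 regions it gave 27 up in Stage 1 against MEF, 0 up in Stage 2 against Stage 1, and 19 up and 85 down in iPSC against MEF. Over all 71069 regions these counts were 20868, 1100, 16839 and 41083. The same scaling reversed Fzd3 (-0.49), Fzd5 (-0.10), Fzd8 (-0.58) and Wnt3 (-0.46) in Stage 1 against MEF. In iPSC against MEF it reversed Dkk1 (-0.12), Fzd5 (-0.63), Fzd7 (-1.38), Fzd8 (-1.16), Fzd9 (-0.85), Fzd10 (-0.31), Sfrp4 (-1.16), Wnt3 (-1.16), Wnt7a (-0.34), Wnt8a (-0.61), Wnt8b (-0.080), Wnt10a (-1.07) and Wnt11 (-1.18).

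DESeq2 gave 3 members up and 1 down in Stage 2 against Stage 1 and 2 up in iPSC against Stage 2. Over all 17540 genes these counts were 824, 813 and 364. For regions it gave 1 up and 2 down in the former and 0 down in the latter, beside 1718, 1557 and 300 of 71069. Thinning gave 3 members up in both of these comparisons, beside 1048 and 654 of all genes. It gave 2 regions up in Stage 2 against Stage 1, 0 down in iPSC against Stage 2 and 35 down in iPSC against MEF. Over all regions these counts were 2846, 649 and 21368. Without the filter 2 regions were up and 3 down in Stage 2 against Stage 1, beside 3253 and 3409 of 114998. That fit had 1 up in iPSC against Stage 2 and 63 up in iPSC against MEF, beside 215 and 37415. With only the 2 groups, 3 regions were up and 2 down in iPSC against Stage 2, beside 878 and 1665 of 71069.

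The replicate numbers were not shown to pair libraries (18 same-number pairs, r from -0.105 to 0.107). A replicate block kept 65 of the 66 member calls. In Stage 2 against Stage 1 it gave 6 members up, beside 1504 of 17540 genes. There 2 regions were up and 3 down, beside 3338 and 3908 of 71069.

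Regions within 2 kb gave 13 members up and 10 down in Stage 1 against MEF, 3 up and 3 down in Stage 2 against Stage 1 and 17 up and 7 down in iPSC against MEF, and reversed Fzd6 (0.43), Sfrp2 (0.16), Wnt3a (0.11), Wnt6 (0.084) and Wnt16 (1.19) in Stage 1, Wnt10a (-0.044) in Stage 2, and Fzd6 (0.41), Wnt2 (0.18) and Wnt16 (1.64) in iPSC against MEF. Regions within 50 kb gave 8 members up and 21 down in Stage 1 against MEF, beside 6770 and 6629 of 19535 genes. In iPSC against MEF they gave 10 up and 17 down. They reversed Wnt6 (0.12) and Wnt8a (-0.23) in Stage 1, and Wnt1 (0.081), Wnt8a (-0.53) and Wnt11 (-0.37) in iPSC against MEF. Regions of 1 gene only gave 10 members up and 15 down in Stage 1 against MEF, beside 4180 and 3816 of 11163 genes. In Stage 2 against Stage 1 they gave 1 up and 3 down, beside 894 and 1090 genes. In iPSC against MEF they gave 11 up and 11 down, beside 3917 and 3982 genes. They reversed Fzd5 (-0.066) and Sfrp4 (3.49) in Stage 1, Wnt6 (-0.029) in Stage 2 and Wnt2b (0.11) in iPSC against MEF.

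Leaving out each library gave 3 to 7 members up and 0 to 3 down in Stage 2 against Stage 1, 3 to 7 up in iPSC against Stage 2, 1 to 6 regions up and 2 to 5 down in Stage 2 against Stage 1 and 0 to 2 regions down in iPSC against Stage 2. These ranges were not set beside those over all genes or regions. Leaving out a library lost 28 of the 66 member calls at least once and reversed 0. Members at few reads, such as Wnt8b, are limited by depth.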
